A study of Sus scrofa with 6 samples.

Results

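The signals of 8 genes were compared between the cell lines: the lactate dehydrogenase subunits LDHA and LDHB, the glycolytic enzymes GPI, PFKL, GAPDH, PGK1 and ENO1, and the glucose transporter SLC2A1. All probe sets that carry one of these symbols and no other in the platform annotation were taken, which gave 21 of the 24123 probe sets on the array, and 8 of 6765 annotated genes. Of the 21, 12 are ordinary probe sets and 9 are GAPDH control probe sets of the array.

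Glycolysis splits glucose into pyruvate in the cytosol and yields ATP without oxygen. Beyond its last step, lactate dehydrogenase turns pyruvate and NADH into lactate and NAD+, which keeps glycolysis running. The enzyme is a tetramer of the subunits LDHA and LDHB, and LDHA-rich tetramers are known for making lactate, LDHB-rich tetramers for turning it back into pyruvate. Enterocytes of the small intestine use glucose and glutamine as fuel and release part of the carbon as lactate.

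IPEC-J2 was set against IPEC-1, with 3 arrays (Affymetrix Porcine Genome Array) of each. Both are non-transformed epithelial lines that immortalised on their own in cultures of small intestine from newborn piglets, and both were untreated, kept in medium with serum, insulin-transferrin-selenium and EGF, and grown on porous membranes, for 7 days by the labels and longer by the methods. By the labels both lines carry 1 cell bank number, by the methods each has its own, and the lines are named here as in the sample labels. From each culture 500 ng of total RNA was used for labelling. The methods speak of independent experiments, so the p-values measure the spread between these cultures of 1 line each. The sample descriptions hold short notes, and these link arrays across the lines: IPEC-J2 replicate 3 and IPEC-1 replicate 1 share one note (note A), and IPEC-J2 replicate 1 and IPEC-1 replicate 2 share another (note B). The remaining 2 arrays, IPEC-J2 replicate 2 and IPEC-1 replicate 3, share none.

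Signals were taken as log2, with a floor of exactly 4 on every array. The floor held 40.5 to 48.2% of the probe sets in IPEC-J2 and 42.0 to 44.5% in IPEC-1. IPEC-J2 replicate 1 was the dimmest array, with a 75th percentile of 8.31, against 8.52 to 8.57 on the others. The probe set for 28S ribosomal RNA stood apart on both note B arrays, at 10.32 in IPEC-J2 replicate 1 and 10.10 in IPEC-1 replicate 2, and read 12.12 to 12.48 on the other arrays. Of 11 epithelial markers with a value, 11 were above the floor throughout IPEC-J2 and 8 throughout IPEC-1, among them EPCAM and the keratins KRT8, KRT18 and KRT19 in both lines. Those at the floor on an IPEC-1 array were CLDN3, HNF4A and VIL1, all called higher in IPEC-J2. Their means were 6.14, 8.68 and 13.89, against 4.00, 4.60 and 6.99 in IPEC-1 (adjusted p = 1.14e-04, 4.59e-04 and 0.0154 from limma). EZR and CLDN7 were also called higher, and KRT19 was called lower, by -0.80 (adjusted p = 0.00363 from limma). Of 6 leukocyte markers 3 (PTPRC, CD4 and ITGAM), and of 5 endothelial markers 4 (VWF, CDH5, KDR and TEK), were at the floor on every array. CD3E was at the floor throughout IPEC-J2, against 5.60 to 6.13 in IPEC-1 (adjusted p = 0.00104 from limma). PECAM1 read 4.00 to 4.87 in IPEC-J2, against 5.65 to 5.88 in IPEC-1 (adjusted p = 0.0144 from limma). The floor hides the spread of CLDN3 in IPEC-1 and of CD3E in IPEC-J2, so their p-values do not measure it. The brightness of a probe set depends on its probes, so levels of different genes were not compared, only the change of each between arrays.

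LDHB was higher in IPEC-J2 and was the only one of the 12 ordinary probe sets to pass the test, where 19.0% of all 16322 probe sets tested passed. LDHB, with 1 probe set, had log2 signals of 12.96, 13.12 and 13.12 in IPEC-J2 replicates 1, 2 and 3, against 12.12, 11.70 and 11.80 in IPEC-1. All IPEC-J2 arrays lay above all IPEC-1 arrays, and the lines did not overlap. IPEC-J2 had a mean of 13.07 ± 0.09, against 11.87 ± 0.22 for IPEC-1 (SD, n = 3 each). The log2 difference was 1.19 (SE 0.15, 95% interval 0.81 to 1.57), or 2.29-fold, with an adjusted p of 0.00638 from limma. It was 1.00 within note A, 1.26 within note B and 1.32 between the remaining 2 arrays. The means of mesenchyme markers also differed between the lines, in both directions, but only THY1 passed the test. Their summed signal had a log2 of 11.61 to 12.21 in IPEC-J2, against 12.52 to 13.43 in IPEC-1. VIM stood at 11.48, against 12.86 in IPEC-1, and did not pass (adjusted p = 0.0523 from limma). Nor did TAGLN, at 6.12 against 9.34 (0.0796), and PDGFRB, at 4.71 against 5.55 (0.117), both with an IPEC-J2 array at the floor. COL1A2 and FN1 differed by only -0.03 and 0.08. THY1, in contrast, had a mean of 9.55 in IPEC-J2, against the floor value on each IPEC-1 array (adjusted p = 1.60e-05 from limma). The floor hides its spread in IPEC-1, so this p-value does not measure it. COL3A1, DCN, LUM and ACTA2, 4 of the 10 on the array, were at the floor everywhere. The part of these markers in the LDHB result was not tested. In whole cultures, a change in the share of cells with a transcript and a change in RNA per cell cannot be told apart.

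LDHA also had a higher mean in IPEC-J2, but the difference did not pass. LDHA, also with 1 probe set, had signals of 13.39, 13.59 and 13.58 in IPEC-J2, against 13.21, 11.66 and 13.04 in IPEC-1. The lines did not overlap, and IPEC-1 replicate 2 lay far below the other IPEC-1 arrays. IPEC-J2 had a mean of 13.52 ± 0.11, against 12.64 ± 0.85 for IPEC-1 (SD, n = 3 each). The log2 difference was 0.88 (95% interval -0.21 to 1.97, adjusted p = 0.216 from limma). Without IPEC-1 replicate 2 the difference was 0.40 (adjusted p = 0.146). It was 0.37 within note A, 1.73 within note B and 0.55 between the remaining arrays.

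**Figure D1:**
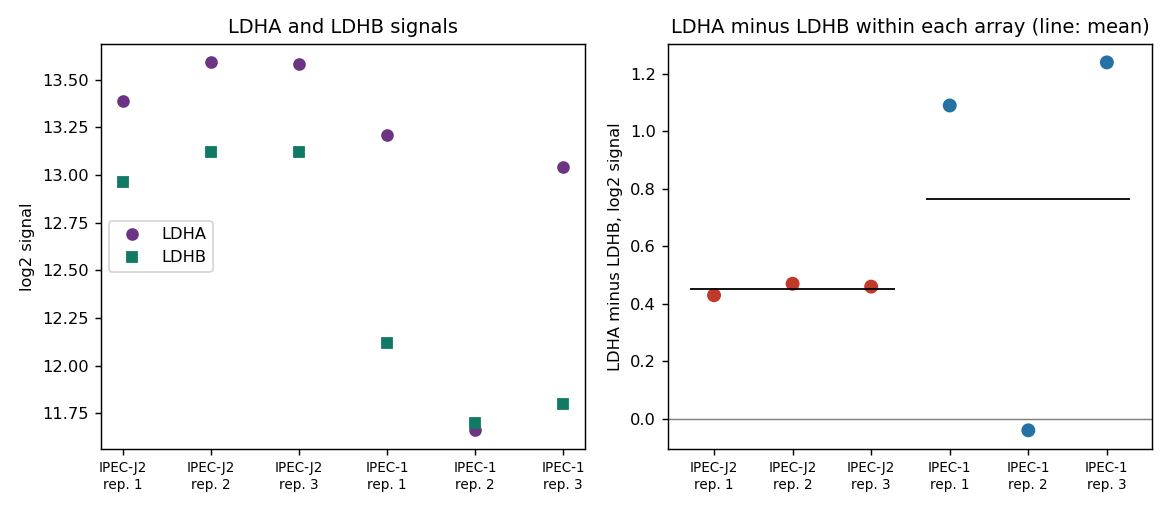
Left, log2 signal of LDHA (circles) and LDHB (squares) on each array. Right, LDHA minus LDHB on the log2 scale within each array, with the mean of each line as a bar. The 3 IPEC-J2 arrays lie at 0.43 to 0.47, while IPEC-1 holds 1.09 and 1.24 and, in replicate 2, -0.04. Brightness differs between probe sets, so only the change between arrays can be read.

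The balance between both subunits was followed as LDHA minus LDHB within each array. The value was 0.43, 0.47 and 0.46 in IPEC-J2 replicates 1, 2 and 3, against 1.09, -0.04 and 1.24 in IPEC-1. The IPEC-J2 arrays were nearly equal, and the IPEC-1 arrays lay on both sides of them. IPEC-J2 had a mean of 0.45 ± 0.02, against 0.76 ± 0.70 for IPEC-1 (SD, n = 3 each). The difference of -0.31 did not pass (two-sided exact permutation test, p = 0.4, where 3 against 3 cannot give less than 0.1). Without IPEC-1 replicate 2 the balance was shifted further towards LDHB in IPEC-J2, by -0.71 (exact permutation p = 0.1, the smallest that 3 against 2 arrays can give). Within note A the difference was -0.63 between the remaining arrays it was -0.77, and within note B it was 0.47, so the direction turned in 1 of 3 pairs.

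**Figure D2:**
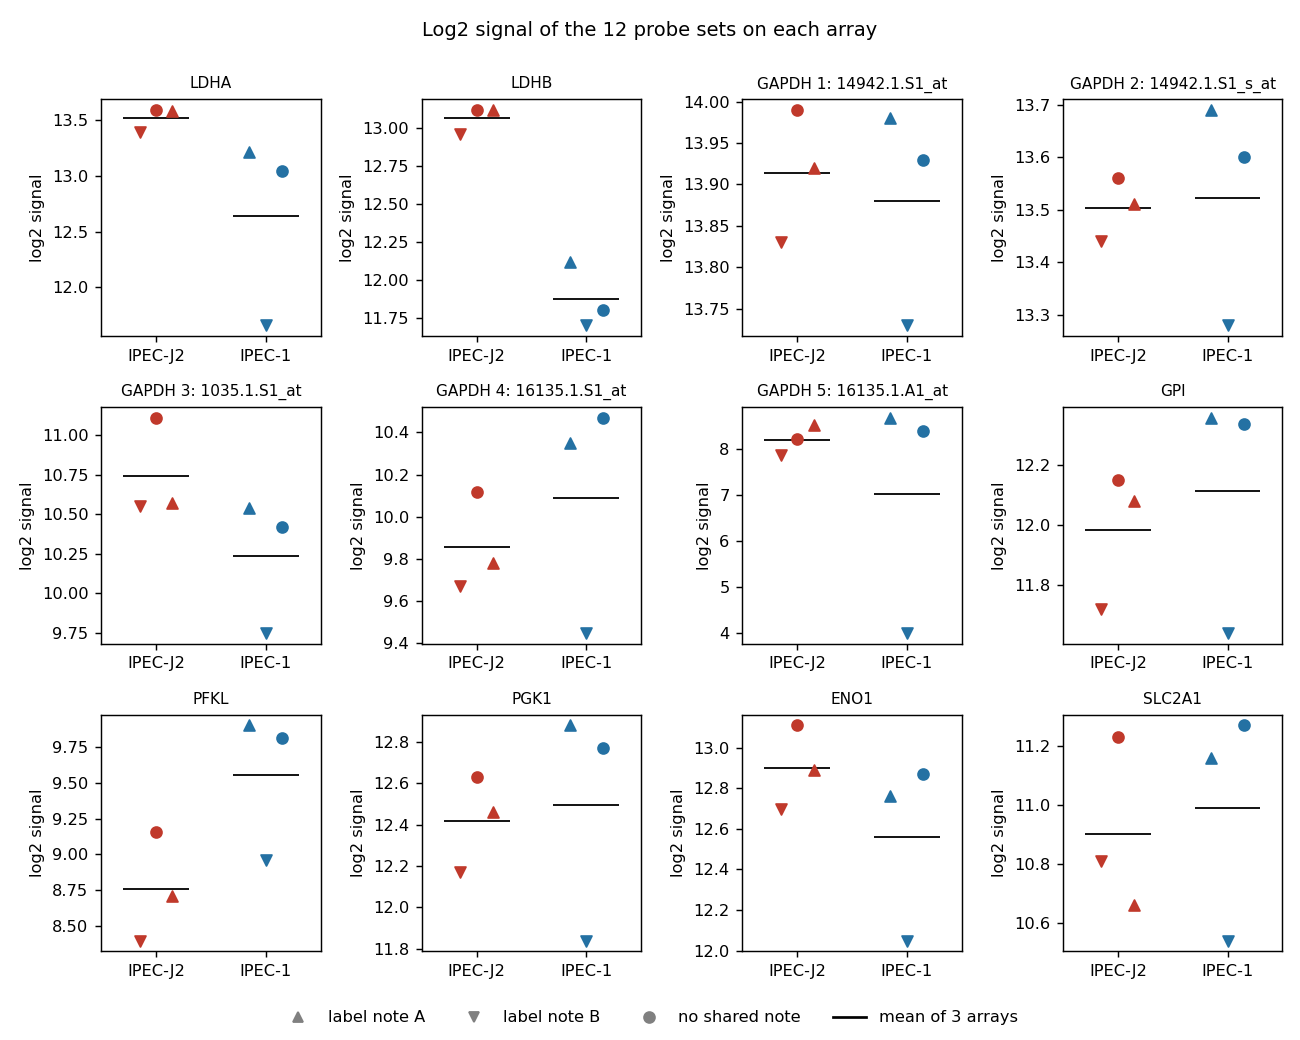
Log2 signal of each ordinary probe set on each array, IPEC-J2 in red and IPEC-1 in blue, with the symbol giving the label note and the bar the mean of 3 arrays; each panel has its own scale, and the GAPDH panels add the end of the probe set's name. LDHB separates the lines, while in IPEC-1 the note B array (triangle pointing down) is the lowest in every panel.

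GPI, which turns glucose 6-phosphate into fructose 6-phosphate, had signals of 11.72, 12.15 and 12.08 in IPEC-J2, against 12.36, 11.64 and 12.34 in IPEC-1. The lines overlapped, and the log2 difference was -0.13 (95% interval -0.76 to 0.50, adjusted p = 0.731 from limma). PFKL is the liver type subunit of phosphofructokinase, the main control step of glycolysis. Its signals were 8.40, 9.16 and 8.71 in IPEC-J2, against 9.90, 8.96 and 9.81 in IPEC-1. Among the 12 probe sets it had the lowest difference, with IPEC-1 replicate 2 inside the range of IPEC-J2. The log2 difference was -0.80 (95% interval -1.64 to 0.04, adjusted p = 0.163 from limma), and it was negative within note A (-1.19), within note B (-0.56) and between the remaining arrays (-0.65). Without IPEC-1 replicate 2 it was -1.10 (adjusted p = 0.0693).

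PGK1 forms the first ATP of the pathway and ENO1 makes phosphoenolpyruvate. PGK1 had signals of 12.17, 12.63 and 12.46 in IPEC-J2, against 12.88, 11.84 and 12.77 in IPEC-1, a log2 difference of -0.08 (95% interval -0.88 to 0.73, adjusted p = 0.892 from limma). ENO1 had signals of 12.70, 13.11 and 12.89 in IPEC-J2, against 12.76, 12.05 and 12.87 in IPEC-1, a difference of 0.34 (95% interval -0.31 to 0.99, adjusted p = 0.428). In both genes the lines overlapped and the lowest IPEC-1 value was that of replicate 2. SLC2A1, the basal glucose transporter GLUT1, had signals of 10.81, 11.23 and 10.66 in IPEC-J2, against 11.16, 10.54 and 11.27 in IPEC-1. Here too the lines overlapped, with a difference of -0.09 (95% interval -0.75 to 0.57, adjusted p = 0.833). These intervals leave room for changes of either sign, so a missing call does not show equal levels.

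GAPDH, the enzyme that reduces NAD+ in glycolysis, is often used as a reference gene, and 14 probe sets of the array carry its symbol. The 5 ordinary ones are numbered here by their mean signal, from the brightest. GAPDH probe set 1 had signals of 13.83, 13.99 and 13.92 in IPEC-J2, against 13.98, 13.73 and 13.93 in IPEC-1, a log2 difference of 0.03 (95% interval -0.28 to 0.34, adjusted p = 0.874 from limma). Its mean lay 0.37 below the highest signals of the arrays. GAPDH probe set 2 gave -0.02 (95% interval -0.39 to 0.35). The 9 control probe sets, with signals of 12.34 to 13.95, gave differences between -0.17 and 0.06 with a median of -0.01, and in a fit that included them 0 of the 9 passed (adjusted p of 0.580 to 0.989 from limma).

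The other 3 GAPDH probe sets were dimmer and did not give the same picture. GAPDH probe set 3 had signals of 10.55, 11.11 and 10.57 in IPEC-J2, against 10.54, 9.75 and 10.42 in IPEC-1, without overlap, and a log2 difference of 0.51 (95% interval -0.20 to 1.21, adjusted p = 0.265 from limma). GAPDH probe set 4 had a difference of -0.23 (95% interval -1.02 to 0.56). GAPDH probe set 5 had signals of 7.86, 8.22 and 8.51 in IPEC-J2, against 8.68, 4.00 and 8.40 in IPEC-1, so that IPEC-1 replicate 2 was at the floor. Its difference of 1.17 (95% interval -2.12 to 4.46) became -0.34 without that array. Averaged over the 5 ordinary probe sets, GAPDH stood at 11.24 ± 0.17 in IPEC-J2, against 10.95 ± 0.79 in IPEC-1 (SD, n = 3 each). The difference of this mean was 0.29 (adjusted p = 0.609), it was -0.16 without IPEC-1 replicate 2, and it was 0.089 with the 9 control probe sets in the mean (adjusted p = 0.786).

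**Figure D3:**
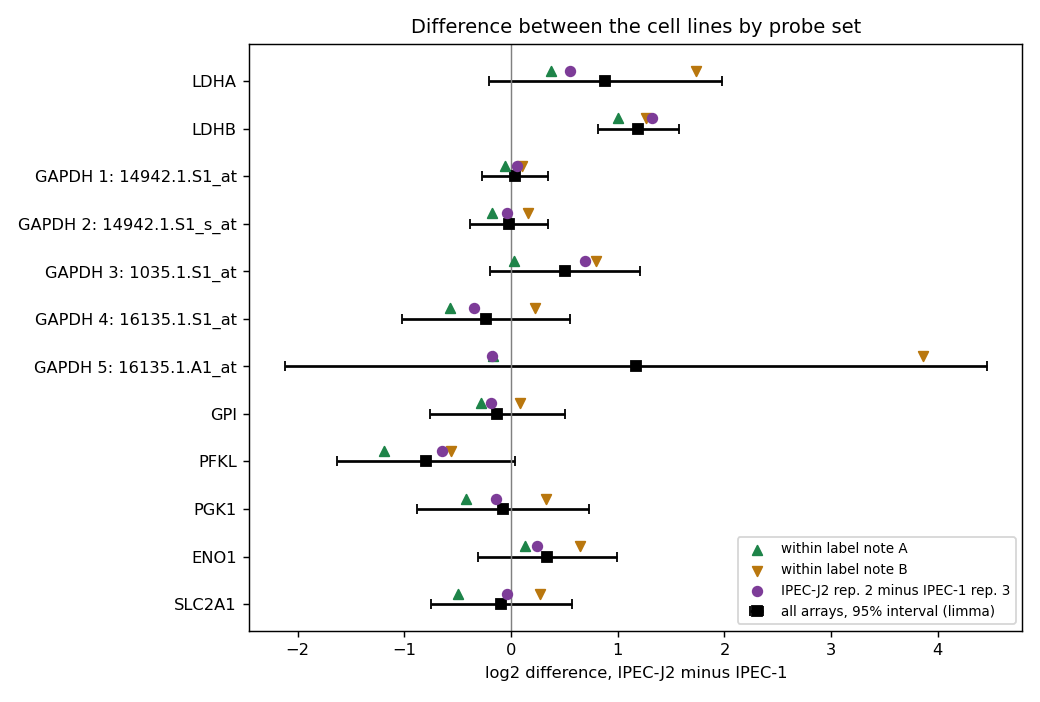
Log2 difference, IPEC-J2 minus IPEC-1, of each ordinary probe set (squares, with the 95% interval from limma) and of each pair of arrays: within note A (triangles up), within note B (triangles down) and between the remaining 2 arrays (circles). LDHB alone has an interval above 0, from 0.81 to 1.57, and in all 12 probe sets the note B difference lies above that of note A.

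By count, 1 of the 12 ordinary probe sets was higher and 0 were lower in IPEC-J2 at an adjusted p under 0.05 from limma. Of all 16322 probe sets tested, 8.79% were higher and 10.2% lower, 19.0% in either direction. At an unadjusted p under 0.05 the count was also 1 (33.6% of all). The methods' t-test gave 1 higher and 0 lower both without adjustment (32.6% of all in either direction) and with it (17.6%). All IPEC-J2 arrays lay above all IPEC-1 arrays in 3 of the 12 (17.4% of all tested) and below them in 0 (23.9%), where 41.3% of all were separated in either direction. The median log2 difference was 0.01 over the 12 probe sets and -0.07 over all tested. With probe sets averaged per gene, 1 of 8 genes was higher and 0 were lower, where 12.0% and 13.8% of 5513 genes tested were called, 25.8% in either direction. The lines were separated with IPEC-J2 higher in 2 of 8 genes (19.9% of all) and with IPEC-J2 lower in 0 (27.6%), against 47.5% of all in either direction.

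The spread between arrays was large in IPEC-1 for these genes when replicate 2 was included. Of the 12 ordinary probe sets, 11 were above the floor on every array. In these 11 the median SD was 0.23 in IPEC-J2 and 0.43 in IPEC-1, and the SD was larger in IPEC-1 in 11 of 11. Over all 11006 probe sets above the floor on every array, the median SD was 0.18 in IPEC-J2 and 0.17 in IPEC-1, and 48.2% had the larger SD in IPEC-1. Among the 7202 of these with a mean signal of 8 or more, 56.5% did. From IPEC-1 replicates 1 and 3 alone, the median SD was 0.08 in the 11 probe sets, against 0.12 in the 11006. The ratio of the SDs was highest for LDHA among the 11, at 7.54.

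IPEC-1 replicate 2 had the lowest IPEC-1 signal in 11 of 11 of these probe sets, against 35.7% of all. It lay below the mean of the other IPEC-1 arrays by a median of -0.73, where the median over all probe sets was 0.01 and 3.64% of all were at or below -0.73. LDHA deviated by -1.47, PGK1 by -0.99, PFKL by -0.90, ENO1 by -0.77, GPI by -0.71, SLC2A1 by -0.68 and LDHB by -0.26. The enzymes and the transporter were thus low together on this array, LDHA most, and LDHB and GAPDH probe set 1 (-0.23) least. Some cell type markers were low on it too, with deviations of -1.04 for VIM, -1.71 for the cadherin CDH1 and -4.49 for the villin VIL1, which was at the floor there. Others were not, with KRT8 at -0.02, EPCAM at 0.105, CLDN4 at 0.22, CLDN7 at 0.34 and TAGLN at 0.70. CDH1 was also low on IPEC-J2 replicate 1, by -1.42 from the other IPEC-J2 arrays. The part of these markers was not tested. IPEC-1 replicate 2 was the lowest in 11 of 11 also after quantile normalization (31.0% of all) and after centring on the 75th percentile (35.2%).

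**Figure D4:**
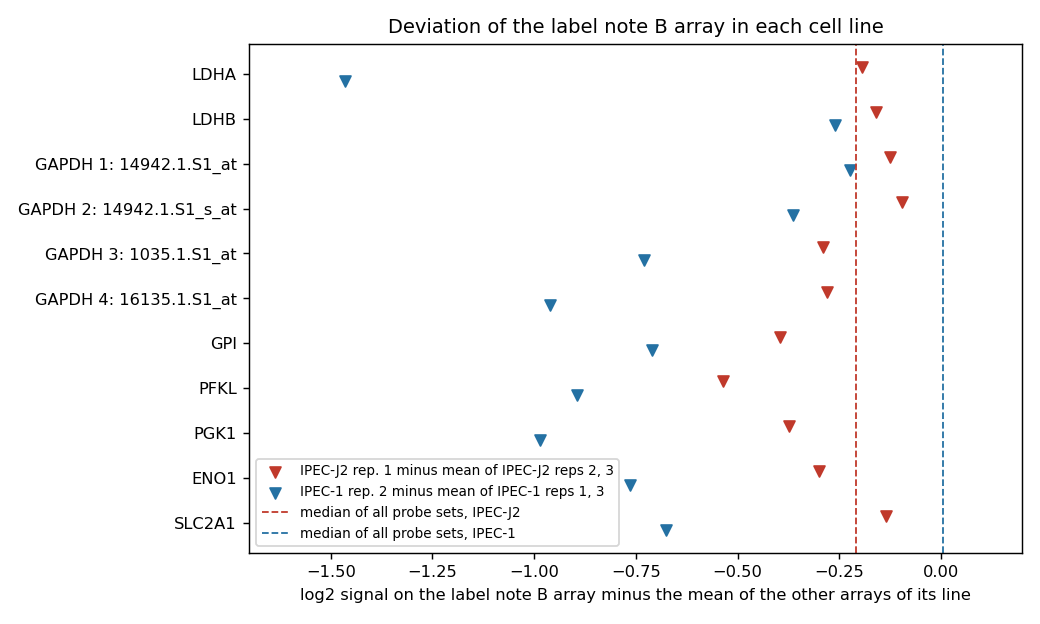
Log2 signal on the note B array minus the mean of the other arrays of the same line, for IPEC-J2 (red) and IPEC-1 (blue), in the 11 probe sets above the floor on every array; dashed lines give the median over all such probe sets, -0.21 in IPEC-J2 and 0.01 in IPEC-1. In IPEC-1 all points lie left of the dashed line, LDHA farthest at -1.47, while in IPEC-J2 they lie on both sides of it.

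IPEC-J2 replicate 1, the other note B array, was the lowest IPEC-J2 array in 10 of the 11 probe sets, but also in 68.4% of all, and its median deviation was -0.28, against -0.21 over all. After centring on the 75th percentile it was the lowest in 3 of 11 (36.9% of all), and after quantile normalization in 9 of 11 (30.0%), so its share depends on the scaling. The 28S signal was low on both note B arrays, and its part in these deviations was not tested. Control probe sets along the GAPDH transcript differed by 0.37, 0.37 and 0.41 between 3' and 5' end in IPEC-J2, against 0.25, 0.41 and 0.38 in IPEC-1, so the note B arrays did not stand apart in this measure.

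For several enzymes the direction of the difference between the lines turned with the pair of arrays. In 6 of the 11 probe sets the difference was negative within note A and positive within note B, a combination found in 4.22% of all. These were GPI, PGK1, SLC2A1 and GAPDH probe sets 1, 2 and 4. Some of the differences were near 0, as in GAPDH probe set 1 (-0.06 within note A and 0.10 within note B). The note B difference uses IPEC-1 replicate 2, so this count is not separate from the low signals on that array. The median difference of the 11 was -0.18 within note A and 0.27 within note B, against -0.02 and -0.22 over all. LDHB and PFKL kept their direction in all 3 pairs of arrays, as did LDHA, ENO1 and GAPDH probe set 3. Deviations from the mean of the own line were positively correlated in all 28 pairs of the 8 genes (Pearson's r 0.49 to 0.99, median 0.91), a description over 6 arrays that rests on the same low array.

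Of the other enzymes of glycolysis, 1 passed the test. BPGM, which makes and removes 2,3-bisphosphoglycerate on a side branch, stood at 7.88 ± 0.05 in IPEC-J2, against 7.01 ± 0.21 in IPEC-1 (SD, n = 3 each), 1.83-fold higher (log2 difference 0.87, adjusted p = 0.00882 from limma). Of 10 other glycolysis enzymes tested, 1 was higher and 0 were lower, where 12.0% and 13.8% of all genes were called, and the median difference was -0.01 (-0.05 over all genes). HK1, which traps glucose as its phosphate, had a difference of 0.12 (adjusted p = 0.735 from limma), and TPI1, the triosephosphate isomerase, -0.25 (0.432). PKM, a pyruvate kinase gene read as a mean of 2 probe sets with dim averages of 5.84 to 6.72, had -0.07 (0.849). Of 7 other enzymes above the floor on every array, 4 had their lowest IPEC-1 signal on replicate 2 (36.3% of all genes). HK1 and TPI1 each lay -0.64 from the other IPEC-1 arrays there, while PKM (0.11) and BPGM (0.22) lay above them. Of 7 regulators 0 passed in limma (25.8% of all genes), with 1 at an unadjusted p under 0.05 (39.2% of all genes). HIF1A, the oxygen-sensitive activator of glycolytic genes, had a difference of -0.16 as a mean of 4 probe sets (95% interval -1.25 to 0.92).

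Among 9 transporter genes tested, 2 were higher and 2 lower in IPEC-J2, where 12.0% and 13.8% of all genes were called. MPC2, a subunit of the mitochondrial pyruvate carrier, had signals of 11.73, 11.64 and 11.83 in IPEC-J2, against 11.03, 10.85 and 11.02 in IPEC-1, and was 1.70-fold higher (adjusted p = 0.00604 from limma). SLC2A2, the low-affinity glucose transporter GLUT2, was 1.57-fold higher (adjusted p = 0.00993). SLC2A12, another glucose transporter, had signals of 4.00, 5.41 and 4.00 in IPEC-J2, the first and the third at the floor, against 7.63, 7.00 and 7.90 in IPEC-1 (adjusted p = 0.00888), and EMB, a partner protein of lactate carriers, had signals of 4.42, 4.90 and 4.00 (the floor) in IPEC-J2, against 6.16, 6.45 and 6.29 in IPEC-1, a difference of -1.86 (adjusted p = 0.00554), or -1.06 in its brightest probe set alone (adjusted p = 0.134). SLC2A3, a high-affinity glucose transporter, gave -1.01 (95% interval -2.67 to 0.65).

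Of 6 genes of pyruvate entry, PDHB, a subunit of pyruvate dehydrogenase, was lower (11.06 ± 0.15 in IPEC-J2 and 11.55 ± 0.11 in IPEC-1, SD, n = 3 each, adjusted p = 0.0359 from limma) and so was PC, pyruvate carboxylase, by -0.98 (adjusted p = 0.0192). FBP1, which runs the phosphofructokinase step backwards, read the floor value on each IPEC-J2 array, against 6.64, 6.51 and 6.67 in IPEC-1 (adjusted p = 4.22e-05 from limma). No fold is given for a gene without a measured level in one line. The floor also hides the spread of FBP1 in IPEC-J2, so its p-value does not measure that spread. FBP1 was the only call among 5 gluconeogenesis genes. TALDO1 of the pentose phosphate pathway was 1.49-fold higher (adjusted p = 0.0122), as 1 of 7 genes. Of 8 genes of glycogen and glycerol phosphate, 3 were higher and 1 was lower. Of all genes, 12.0% were called higher and 13.8% lower. The glycogen phosphorylase PYGL was 2.30-fold higher (adjusted p = 0.0107), the glycerol phosphate dehydrogenases GPD1L and GPD2, of which the second hands electrons from cytosolic NADH to mitochondria, were higher, GPD1L by 2.04-fold, and PGM2, a phosphoglucomutase, was 1.55-fold lower. GPD2, a mean of 3 probe sets, had signals of 6.45, 6.52 and 7.19 in IPEC-J2, against 5.57, 4.49 and 4.86 in IPEC-1, near the floor, so no fold is given, and its brightest probe set alone did not pass (adjusted p = 0.168). The calls of PDHB (adjusted p of 0.0503 to 0.104) and PGM2 (0.0546 to 0.0958) ended when any of the 6 arrays was left out. That of GPD1L ended without any array other than IPEC-1 replicate 1 (0.0513 to 0.0735), that of GPD2 without IPEC-J2 replicate 3 or IPEC-1 replicate 2 or 3 (0.0507 to 0.0634), that of PC without IPEC-J2 replicate 3 (just past the threshold), IPEC-1 replicate 1 (0.0552) or IPEC-1 replicate 3 (0.0586) and that of TALDO1 without IPEC-J2 replicate 3 (0.0538). Without both note B arrays, an alternative chosen after seeing the data, the calls of PYGL (0.0628), TALDO1 (0.0561) and EMB (0.0563) ended, as did those of GPD1L, GPD2 and PGM2 (0.0720 to 0.0898). Over all 52 other genes tested around the pathway, 7 were higher and 6 lower, close to the 12.0% and 13.8% of all genes.

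**Figure D5:**
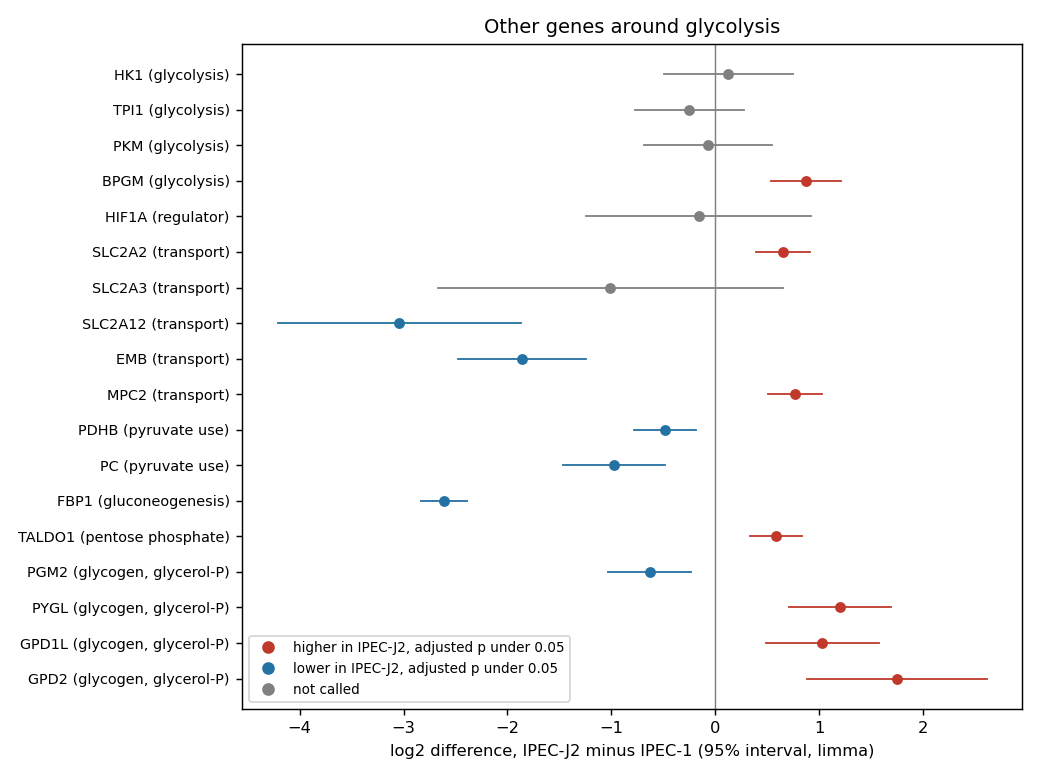
Log2 difference, IPEC-J2 minus IPEC-1, with the 95% interval from limma, of genes around glycolysis that passed the test (red higher, blue lower in IPEC-J2) and of further genes named in the text (grey). GPD2 and PYGL are the highest at 1.75 and 1.20; values of FBP1, SLC2A12 and EMB include IPEC-J2 arrays at the floor of 4, and GPD2 lies near the floor in IPEC-1.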

How the data were processed

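RNA of 3 IPEC-J2 and 3 IPEC-1 cultures was measured on Affymetrix Porcine Genome Arrays. The authors deposited 1 table of log2 signals per probe set and array, made with GCOS 1.1.1 and PLIER by the submitters' processing notes; the methods describe scaling, background correction and normalization. The log base is not stated and was inferred from the floor of 4, the log2 of 16. No detection calls were used.

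Symbols came from the platform annotation (10069 ordinary probe sets with 1 symbol, 198 with several, 13732 unnamed here; 7 of the 8 gene identifiers were in the RefSeq gene table). Probe sets at the floor on every array (7677) and array controls were left out. The remaining 16322 were tested with limma 3.58.1 in R 4.3.3 (lmFit, eBayes) and adjusted by Benjamini-Hochberg over all, and likewise 5513 gene means. Differences are IPEC-J2 minus IPEC-1. The fit was tested on simulated data. Members and lists were chosen with earlier results of these data known. All members were named, and of other genes those called and 11 fixed ones where they had a value. Same-numbered arrays did not deviate together (r = -0.23, -0.34 and 0.06), whereas arrays of note A (0.28), note B (0.48) and the remaining pair (0.35) did. Alternatives covered scaling, filters, the variance model, the methods' t-test, blocks and single arrays left out. The number of arrays limits the precision. No sequences are shown.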

Additional observations from a re-analysis of the deposited data

How the results depend on the processing

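LDHB stayed called in all settings but one: with the replicate number as a block (replicate block, 2 residual degrees of freedom) the probe set had an adjusted p of 0.0660, so that 0 of 12 probe sets passed in place of 1, while the gene fit still called it (0.0424). With 1 array left out, its difference ran between 1.11 and 1.32 and stayed called. No member was called lower in any setting. The block left 1 other pathway gene higher and 2 lower, in place of 7 and 6; without the note B arrays, chosen after seeing the data, 3 were higher, and with 1 array left out 4 to 8 were higher and 3 to 4 lower. MPC2 kept its call in all settings, and FBP1 in all but the filter on low means, which removed it; EMB (0.134) and GPD2 (0.168) lost theirs with the brightest probe set per gene.

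LDHA minus LDHB was -0.31 with the replicate block. Here the p of 0.5 came from flipping the signs of the differences between same-numbered arrays, which cannot give less than 0.25. The difference ran from -0.71 to -0.07 with 1 array left out, was -0.70 without the note B arrays and 0.47 within note B. Differences without a call turned sign: the GAPDH probe set 2 was 0.037 after centring on the 75th percentile, and without the note B arrays probe set 5 was -0.17 and the GAPDH mean -0.077. With 1 array left out, probe set 1 ran from -0.042 to 0.083, probe set 2 from -0.14 to 0.063, probe set 5 from -0.34 to 2.00, the GAPDH mean from -0.16 to 0.54, GPI from -0.37 to 0.0017, PGK1 from -0.41 to 0.12 and SLC2A1 from -0.32 to 0.05. The cause was not tested. Of all probe sets 3095 were called, against 958 with the replicate block, 1640 with the notes as a fixed block, also chosen after seeing the data, 2192 without the note B arrays, 5321 by the methods' t-test without adjustment and 1592 to 2869 with 1 array left out.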

Other observations

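PCK1, the enzyme that starts gluconeogenesis from oxaloacetate, was singled out after its values were seen. Its 1 probe set had signals of 7.76 in IPEC-J2 replicate 1 and 8.01 in IPEC-1 replicate 2, the arrays of note B, and was at the floor on the other 4 arrays. Only 24 probe sets were above the floor on both note B arrays and at the floor on the others, and 3 of them, PCK1 included, had both signals at 7.5 or more. PGM1, which links glycogen to glycolysis and was also singled out by its values, lay 1.18 below the other IPEC-1 arrays on IPEC-1 replicate 2.

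Among 4330 genes above the floor on every array, those whose signal followed LDHA most closely over the 6 arrays were ZDHHC3, AVPI1 and FAM219A (Pearson's r 0.98 each). Those closest to LDHB were TAP1, SDHD and PTP4A2 (r of 1.00 each after rounding). TAP1 had means of only 5.77 in IPEC-J2 and 5.19 in IPEC-1, near the floor. These correlations are descriptions over 6 arrays in 2 lines, with no p. The control probe sets of beta-actin differed between 3' and 5' end by 2.79, 2.77 and 2.81 in IPEC-J2, against 1.42, 1.74 and 1.68 in IPEC-1, while those of GAPDH differed by 0.25 to 0.41 over both lines.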
